A study of Mus musculus with 4 samples.

Results

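Immediate early genes were followed in immune cells sorted from mouse brain after cardiac arrest (CA). The set held 10 genes chosen by symbol, Fos, Fosb, Jun, Junb, Egr1, Ier2, Atf3, Dusp1, Nr4a1 and Zfp36, and all 10 were found among the 32285 genes listed. The samples were aged CA, aged sham, young CA and young sham. All mice were wild-type C57Bl/6, aged mice were 18 to 20 months old and young mice 3 to 6 months old, and all brains were taken on day 3. CA was brought on with potassium chloride (KCl) and ended by resuscitation, and sham mice had the surgery without the arrest. Each group was 1 library of cells pooled from 3 mice that cannot be told apart, so no difference between groups has a replicate check and no p-value is given. All intervals below are 95% and cover counting error only.

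Immediate early genes are transcribed within minutes of a stimulus from factors already present in the cell, without new protein synthesis. Mitogen-activated protein kinases pass the signal to the serum response factor with its partners and to CREB, which sit at these promoters, and the products either switch on a later wave of genes or shut the signal down. The same genes are known to be induced when tissue is taken apart and cells are sorted, in microglia as in other cells. The labels' protocols describe perfusion through the heart, mechanical dissociation, a Percoll step and a sort for CD45, a leukocyte surface protein, and name no agent that blocks transcription. How much of any level below arose during isolation was not tested.

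The gene spans of the members on GRCm38, the assembly that mm10 names, had a median of 4698.5 bases (1522 to 56539), against 17403 bases over 21951 protein-coding genes, and Nr4a1, Atf3 and Dusp1 lay above that median of all. For Atf3 and Dusp1 this rests on the outer limits of the annotation. The RefSeq starts used below lie well inside both spans, and from them both genes are shorter than the median of all. The longest coding transcripts of Jun, Junb and Ier2 each had 1 exon. Promoters of 8 of the 10 members were listed in RefSeq for GRCm38.p6, and Egr1 and Ier2 had no entry. The 250 bases before the start site are shown for the 4 members whose windows held a motif that binds CREB-type factors or the serum response factor, Fos (chr12:85473640-85473889, plus strand), Dusp1 (chr17:26508473-26508722, minus strand), Atf3 (chr1:191183334-191183583, minus strand) and Zfp36 (chr7:28379229-28379478, minus strand). Capitals mark TGACGT, the core of the cAMP response element, in Fos, Dusp1 and Atf3, TATAAA in Fos, and the CArG box in Zfp36. In Atf3 the core lies on the opposite strand, so the capitals read ACGTCA.
Fos: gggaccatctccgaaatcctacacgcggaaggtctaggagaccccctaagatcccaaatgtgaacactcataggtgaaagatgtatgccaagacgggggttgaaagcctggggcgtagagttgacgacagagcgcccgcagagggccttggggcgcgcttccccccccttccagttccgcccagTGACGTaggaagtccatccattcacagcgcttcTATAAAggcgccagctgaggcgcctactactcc
Dusp1: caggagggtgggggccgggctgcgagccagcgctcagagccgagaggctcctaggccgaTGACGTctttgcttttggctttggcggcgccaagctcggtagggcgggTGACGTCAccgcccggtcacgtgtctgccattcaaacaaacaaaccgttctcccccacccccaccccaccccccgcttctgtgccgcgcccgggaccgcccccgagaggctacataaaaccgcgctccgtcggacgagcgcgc
Atf3: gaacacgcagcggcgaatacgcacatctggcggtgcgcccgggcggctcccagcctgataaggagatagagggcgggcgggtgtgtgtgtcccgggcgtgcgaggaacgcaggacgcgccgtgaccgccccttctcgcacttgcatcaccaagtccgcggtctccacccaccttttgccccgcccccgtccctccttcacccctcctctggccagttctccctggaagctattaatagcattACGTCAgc
Zfp36: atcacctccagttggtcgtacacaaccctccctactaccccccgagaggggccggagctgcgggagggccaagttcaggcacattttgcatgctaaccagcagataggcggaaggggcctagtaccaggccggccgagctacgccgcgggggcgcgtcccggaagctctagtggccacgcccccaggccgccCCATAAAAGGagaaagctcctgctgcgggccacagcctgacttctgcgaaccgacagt
Motifs were searched on both strands from 250 bases before to 50 bases after each start. Within that window TGACGT was found in 3 of 8 members, against 7.51% of 32851 promoters. In Fos it lay at positions -66 to -61 and in Atf3 at -8 to -3. Dusp1 held it at -191 to -186 and in the full palindrome TGACGTCA, which 1.79% of promoters held and which is TGACGT on both strands, at -143 to -136. The CArG box was found within the window in Zfp36 alone among the 8, at -58 to -49, and in 1.63% of all promoters. Bases further upstream were not searched. TATAAA was found in Fos (-33 to -28) and in Junb, there not upstream but from the start site on (1 to 6), against 13.6% of promoters. TGANTCA, the site of AP-1 itself, was found in 0 of 8, against 7.81%. A match is a run of letters and was not tied to any level below.

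Cells were assigned to classes by 8 marker genes each, none of them a member, and a cell was kept in a class when at least 3 of its markers were seen and it led the next class by at least 2 markers. Kept cells numbered 5611 in aged CA, 7083 in aged sham, 9310 in young CA and 8120 in young sham, of which 4527, 5349, 8458 and 7603 were gated as microglia, the resident macrophages of brain tissue. Gated microglia had a median of 7 or 8 of the 8 microglial markers and at most 1 of any other class, carried Ptprc (the CD45 gene) at 405 CPM or more in each library, and 2.37% to 9.27% of them lay exactly at 1 of these limits. Cells outside every class numbered 578 in aged CA, 1112 in aged sham, 433 in young CA and 289 in young sham, and carried the 10 genes at a summed 1826, 867, 1199 and 615 CPM in that order. CPM are the molecules (UMIs) of a gene scaled to the total over all genes of the gated cells. Because each molecule is counted once at its 3' end, levels of different genes were compared without scaling by length. Aged sham stood apart from the other libraries: its microglia had a median of 3653 UMIs, against 10790 in aged CA, 9418.5 in young CA and 5828 in young sham. Its microglia also carried haemoglobin transcripts at 91.4 CPM, against 1.16 to 2.96 CPM in the other 3. Results are therefore also given for aged CA over young CA, which does not use aged sham. Every pair of libraries shared 15 to 32 barcodes, at most 0.416% of either library.

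In microglia the 10 genes summed to 1662 CPM in aged CA, 1758 CPM in aged sham, 1114 CPM in young CA and 994 CPM in young sham. Aged over young was thus 1.49-fold in CA (1.48 to 1.51) and 1.77-fold in sham (1.75 to 1.79). CA over sham was 0.945-fold in aged mice (0.935 to 0.956) and 1.12-fold in young mice (1.11 to 1.13). The order of aged CA and aged sham differed between ranges of depth per cell, as given below. Members lay on both sides of the sum, and its 2 largest parts differed in order between CA and sham. Jun made up 20.6% of the UMIs of the set in aged CA and 37.0% in aged sham, and 25.8% in young CA and 39.4% in young sham. Junb made up 32.6% in aged CA and 27.5% in aged sham, and 34.6% in young CA and 31.3% in young sham.

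**Figure D1:**
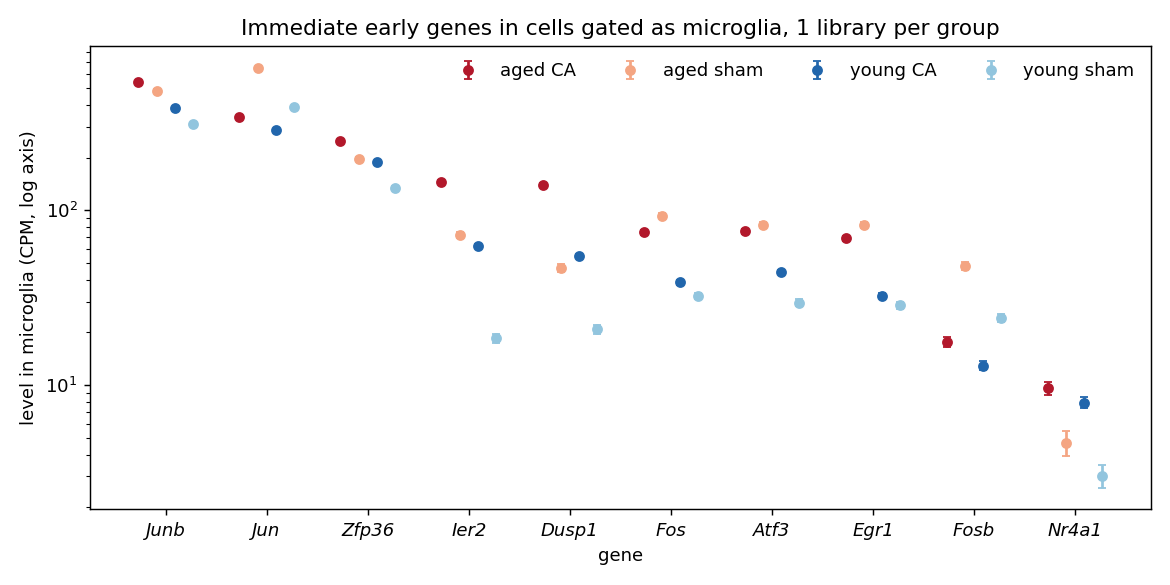
Level of each member in cells gated as microglia, in CPM on a log axis, with 1 point per library and bars for exact Poisson 95% intervals, which are narrower than most points. Junb and Jun stand highest in all 4 libraries and Nr4a1 lowest, and Jun and Fosb are lower in each CA library than in the sham library of the same age.

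Jun (chr4:95049034-95052222, minus strand), the central partner of the AP-1 dimers, stood at 342 CPM in aged CA, 650.2 CPM in aged sham, 287 CPM in young CA and 391 CPM in young sham. It was lower after CA at both ages, at 0.526-fold in aged (0.515 to 0.536) and 0.734-fold in young mice (0.721 to 0.747). Age went the other way, at 1.19-fold in CA (1.17 to 1.21) and 1.66-fold in sham (1.63 to 1.69). Junos, an antisense gene, overlaps Jun. Junb (chr8:84974484-84978718, minus strand), a Jun relative that can oppose Jun at shared sites, stood at 542 CPM in aged CA, 483 CPM in aged sham, 385 CPM in young CA and 311 CPM in young sham. Unlike Jun it was slightly higher after CA, at 1.12-fold in aged (1.10 to 1.14) and 1.24-fold in young mice (1.22 to 1.26). Junb thus exceeded Jun in both CA libraries and Jun exceeded Junb in both sham libraries. Junb overlaps Prdx2 on the opposite strand.

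Among the Fos proteins, which bind DNA with a Jun partner, Fosb had the lowest ratio of the set for CA over sham at both ages. Fosb (chr7:19302696-19310051, minus strand) stood at 17.6 CPM in aged CA, 48.0 CPM in aged sham, 12.9 CPM in young CA and 24.1 CPM in young sham. CA over sham was 0.367-fold in aged (0.338 to 0.399) and 0.535-fold in young mice (0.494 to 0.578). Fos did not follow it. Fos (chr12:85473890-85477273, plus strand) stood at 74.5 CPM in aged CA, 93.1 CPM in aged sham, 38.6 CPM in young CA and 32.3 CPM in young sham, so that the log2 ratio of CA over sham was -0.32 in aged (0.763- to 0.840-fold) and 0.26 in young mice (1.13- to 1.27-fold). Its difference by age was larger than either, at 1.93-fold in CA (1.84 to 2.02) and 2.88-fold in sham (2.72 to 3.06).

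Atf3 (chr1:191170296-191218039, minus strand), a stress-induced factor of the same leucine zipper class, stood at 75.9 CPM in aged CA, 82.1 CPM in aged sham, 44.2 CPM in young CA and 29.5 CPM in young sham. Its log2 ratio of CA over sham was -0.11 in aged and 0.58 in young mice, and the aged value lay on the other side of 0 under TMM scaling (0.02) and as a mean over cells (0.07). Egr1, a zinc finger factor, followed Fos: it stood at 69.0 CPM in aged CA, 82.0 CPM in aged sham, 32.4 CPM in young CA and 28.5 CPM in young sham. Aged over young was 2.13-fold in CA (2.03 to 2.24) and 2.87-fold in sham (2.70 to 3.06) for Egr1, and 1.72-fold in CA (1.64 to 1.79) and 2.78-fold in sham (2.61 to 2.95) for Atf3. For Fos, Egr1 and Atf3 alike, CA was by class total lower than sham in aged mice and higher than sham in young mice. In cells thinned to 1000 UMIs, Egr1 and Atf3 were instead higher in aged CA than in aged sham. Whether the ages differ in this was not tested with 1 library a group.

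Ier2, a small nuclear protein with a role in transcription, Dusp1 and Nr4a1 were the members at least 2-fold higher after CA at both ages. Ier2 (chr8:84661331-84662852, minus strand) stood at 145 CPM in aged CA, 71.8 CPM in aged sham, 62.8 CPM in young CA and 18.5 CPM in young sham. It was 2.02-fold higher after CA in aged (1.93 to 2.12) and 3.39-fold in young mice (3.18 to 3.62), and its ratio of aged over young was the largest of the set in sham, at 3.88-fold (3.61 to 4.18). Dusp1 (chr17:26505590-26562128, minus strand) encodes the phosphatase that switches mitogen-activated protein kinases off. It stood at 140.1 CPM in aged CA, 46.8 CPM in aged sham, 54.9 CPM in young CA and 20.8 CPM in young sham, so that CA over sham was 2.99-fold in aged (2.83 to 3.17) and 2.64-fold in young mice (2.48 to 2.81). For Ier2 and Dusp1, as for Junb, Zfp36 and Nr4a1, the aged CA library was the highest of the 4 and young sham the lowest. The annotated span of Dusp1 overlaps Ergic1 on the opposite strand, and the strand setting of the counting was not given in the sources used here.

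Zfp36 (chr7:28376784-28380253, minus strand) encodes tristetraprolin, which binds AU-rich 3' ends of cytokine mRNAs such as Tnf and speeds their decay. It stood at 247 CPM in aged CA, 197 CPM in aged sham, 188 CPM in young CA and 134 CPM in young sham. CA over sham was 1.25-fold in aged (1.22 to 1.29) and 1.40-fold in young mice (1.36 to 1.43), well under the ratios of Dusp1, the other brake. Nr4a1 (chr15:101254269-101274795, plus strand), an orphan nuclear receptor, was scarce in microglia, with 9.55 CPM in aged CA (8.73 to 10.4), 4.64 CPM in aged sham (3.92 to 5.44), 7.92 CPM in young CA (7.35 to 8.53) and 3.00 CPM in young sham (2.57 to 3.48). Its ratio of CA over sham was 2.06-fold in aged (1.71 to 2.49) and 2.64-fold in young mice (2.24 to 3.14).

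Set beside all genes, the median of the members lay further from the median of all genes by age than by arrest. All 10 are counted below, although Nr4a1 lies under the mean of 10 CPM that the 9229 background genes had to reach. In aged over young sham 10 of 10 members were higher, against 40.6% of all genes, and 5 of 10 were at least 2-fold higher, against 2.28%. No member was 2-fold lower, against 0.141%, and 2.42% of all genes passed 2-fold either way. The 10 had a median log2 ratio of 1.08, against -0.05 over all genes, and the lowest of them, Zfp36, lay at a percentile of 95.4. In aged over young CA 10 of 10 were again higher, against 51.9% of all genes, and Egr1, Ier2 and Dusp1 were at least 2-fold higher, 3 of 10 against 1.58%. No member was 2-fold lower, against 2.82%, and 4.4% of all genes passed 2-fold either way. The median there was 0.63, against 0.01 over all genes. The 2 comparisons share no library.

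In young CA over young sham 8 of 10 members were higher, against 43.9% of all genes, and Ier2, Dusp1 and Nr4a1 were at least 2-fold higher, 3 of 10 against 5.43%. No member was 2-fold lower there, against 2.8% of all genes, and 8.22% passed either way. The median was 0.40, against -0.07 over all genes. In aged CA over aged sham the members divided evenly, 5 of 10 higher against 53% of all genes. Ier2, Dusp1 and Nr4a1 were again at least 2-fold higher, 3 of 10 against 5.4%, while Fosb was 2-fold lower, 1 of 10 against 7.87%, and 13.3% of all genes passed either way. The median of 0.03 lay beside an all-gene median of 0.04. In aged mice the members thus ran from 0.367-fold (Fosb) to 2.99-fold (Dusp1) about a median near that of all genes. The comparisons by arrest share each sham or CA library with those by age. TMM scaling moved the all-gene medians of CA over sham to 0.18 in aged and 0.06 in young mice and the members by as much. It changed the split of genes at 2-fold to 704 higher and 591 lower in aged mice (498 and 726 by class total) and to 656 higher and 182 lower in young mice (501 and 258 by class total).

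**Figure D2:**
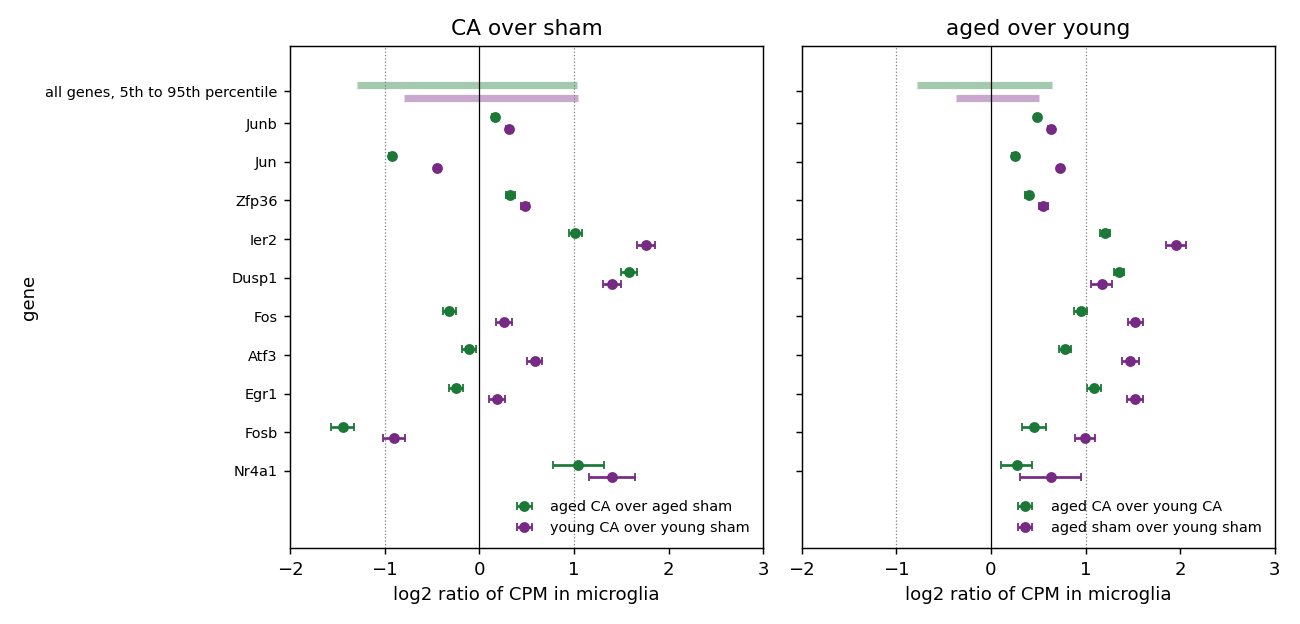
Log2 ratio of CPM in microglia for each member, CA over sham on the left and aged over young on the right, with bars for the 95% counting interval and dotted lines at 2-fold. The thick bars at the top span the 5th to the 95th percentile of all 9229 genes, and all 10 points of aged sham over young sham lie to the right of 0.

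Of 28 other immediate early genes, 15 reached the mean of 10 CPM in microglia. In aged CA over aged sham 7 of the 15 were higher, near the 53% of all genes, with a median log2 ratio of -0.05. In young CA over young sham 10 of 15 were higher, against 43.9% of all genes, with a median of 0.23. By age 10 of 15 were higher in CA (51.9% of all genes) and 13 of 15 in sham (40.6%), with medians of 0.37 and 0.59. Ier3, a survival gene induced by NF-kB, had the largest ratio by arrest, at 210 CPM in aged CA and 26.2 CPM in aged sham (8.01-fold, 7.47 to 8.60) and at 49.2 CPM in young CA and 7.79 CPM in young sham (6.31-fold, 5.73 to 6.97). Klf4 was 3.40-fold higher after CA in aged and 3.15-fold in young mice. Klf2, a factor that holds myeloid cells quiescent, parted by age: it stood at 17.6 CPM in aged CA and 47.7 CPM in aged sham (0.368-fold, 0.339 to 0.400), but at 35.1 CPM in young CA and 13.8 CPM in young sham (2.54-fold, 2.35 to 2.75), a difference between ages that was not tested. Myc was 2.33-fold higher in young CA than in young sham, and Klf10 2.29-fold higher in aged CA than in aged sham. Ppp1r15a (2.05-fold) and Myc (2.03-fold) were higher in aged than in young sham.

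Of 17 kinases and factors that act upstream of these genes, 15 were measured. Higher were 6 of 15 in aged CA over aged sham (53% of all genes), 4 in young CA over young sham (43.9%), 5 in aged over young CA (51.9%) and 3 in aged over young sham (40.6%). Mapkapk2, a kinase under p38 that stabilises cytokine mRNAs, was the highest of these ratios, at 169.8 CPM in aged CA and 73.7 CPM in aged sham (2.30-fold, 2.20 to 2.41). Rps6ka1, a kinase that activates CREB (102 CPM in aged CA, 234 CPM in aged sham), and Creb1 itself (80.2 CPM in aged CA, 176 CPM in aged sham) were at least 2-fold lower, 2 of 15 against 7.87% of all genes. Heat shock genes, which handling also induces, had 3 of 5 measured members higher in aged CA over aged sham and 5 of 5 in young CA over young sham, 2 of 5 in aged over young CA and 5 of 5 in aged over young sham, and none reached 2-fold. The same all-gene shares apply. Their medians were 0.04, 0.51, -0.12 and 0.40 in that order of comparisons.

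Genes that microglia are known to switch on during isolation, among them cytokine genes and Nfkbia, had medians of 2.37 in aged and 1.42 in young mice for CA over sham, on the log2 scale. Of the 8 of 9 that were measured, all 8 were higher in aged CA over aged sham (53% of all genes), in young CA over young sham (43.9%) and in aged over young CA (51.9%). At least 2-fold higher were 6 of 8 in aged CA over aged sham (5.4% of all genes), 5 in young CA over young sham (5.43%) and 8 in aged over young CA (1.58%), where the median was 2.11. In aged over young sham 7 of 8 were higher (40.6% of all genes) and 6 of 8 at least 2-fold higher (2.28%), with a median of 1.40. Ccl3, a chemokine, stood at 982 CPM in aged CA, 75.6 CPM in aged sham, 113 CPM in young CA and 27.0 CPM in young sham. Tnf, the target of Zfp36 named above, stood at 269 CPM in aged CA, 34.4 CPM in aged sham, 40.8 CPM in young CA and 5.25 CPM in young sham. Aged CA was the highest library for both. Nfkbia, the inhibitor that NF-kB induces against itself, was 5.81-fold higher in aged CA than in aged sham (5.57 to 6.06). These genes answer to infection and injury as well as to handling, and the sources cannot be told apart here.

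The difference by age was seen at every depth. Among microglia of 10000 UMIs or more the 10 genes summed to 1599 CPM in aged CA, 1714 CPM in aged sham, 1072 CPM in young CA and 976 CPM in young sham. Among those of 2000 to 5000 UMIs they summed to 1982, 1851, 1224 and 1046 CPM in that order of libraries. Aged CA exceeded young CA, and aged sham young sham, in all 4 depth ranges. Aged CA lay below aged sham at 10000 UMIs or more but above it at 2000 to 5000 UMIs. Microglia were also divided into 3 equal groups by their share of mitochondrial UMIs, which had a median of 3.72% in aged CA, 1.95% in aged sham, 2.58% in young CA and 1.66% in young sham. From the lowest to the highest group the sum was 1715, 1658 and 1605 CPM in aged CA, 1676, 1804 and 1811 CPM in aged sham, 1146, 1156 and 1011 CPM in young CA and 882, 1036 and 1140 CPM in young sham. The sum was lower at higher mitochondrial shares in aged CA and higher in both shams, and each of the 3 groups of an aged library lay above all 3 of the young library of the same treatment. Leaving out cells with at least 1% haemoglobin UMIs changed no sign and no 2-fold call of any member. That limit lies far above the mean haemoglobin level of microglia in every library, so it cannot show the part of haemoglobin in the ratios.

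**Figure D3:**
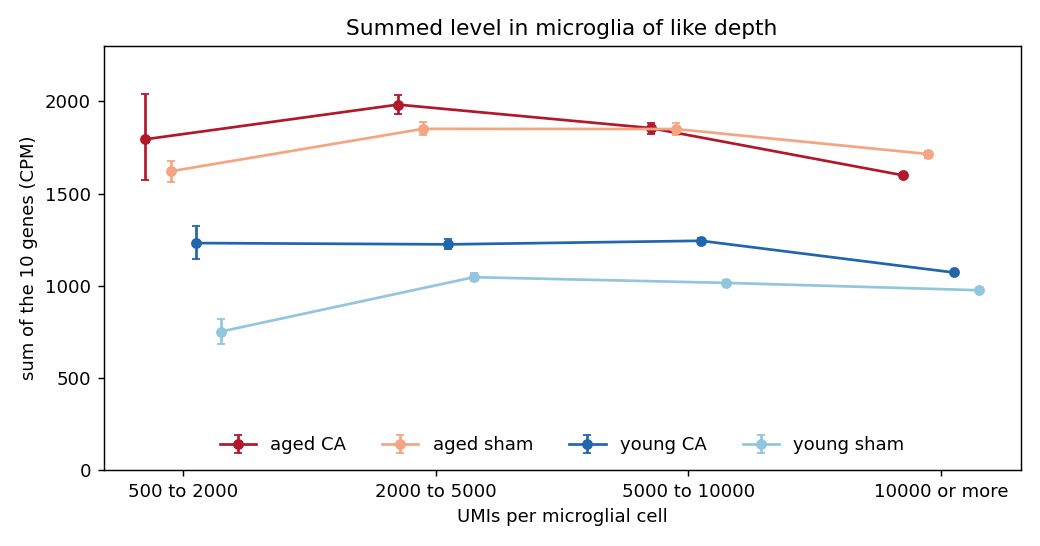
Sum of the 10 members in microglia grouped by UMIs per cell, in CPM, with exact Poisson 95% intervals and 1 line per library. Both aged lines run above both young lines at every depth, and the widest interval, 1573 to 2037 CPM, belongs to the 87 shallowest cells of aged CA.

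To see whether few or many cells carried the transcripts, each microglial cell of at least 2000 UMIs was thinned to 2000 UMIs. This left out 87 cells in aged CA, 1551 in aged sham, 408 in young CA and 688 in young sham. The mean number of UMIs of the set per cell was 3.58 in aged CA, 3.59 in aged sham, 2.38 in young CA and 2.02 in young sham. Cells without any UMI of the set made up 11.2% in aged CA, 11.4% in aged sham, 19.6% in young CA and 23.6% in young sham. Cells with 10 or more made up 4.98% in aged CA, 4.66% in aged sham, 1.22% in young CA and 0.492% in young sham. The aged libraries thus had fewer cells at 0 and more at high numbers. The 10% of cells with the most UMIs of the set held 28.6% to 31.5% of the UMIs in every library. The variance over the mean of single members ran from 1.11 (Nr4a1 in young CA) to 1.90 (Jun in aged CA). Its median over 9109 genes in aged CA, 9452 in aged sham, 9125 in young CA and 9101 in young sham was 1.07, 1.08, 1.07 and 1.09.

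**Figure D4:**
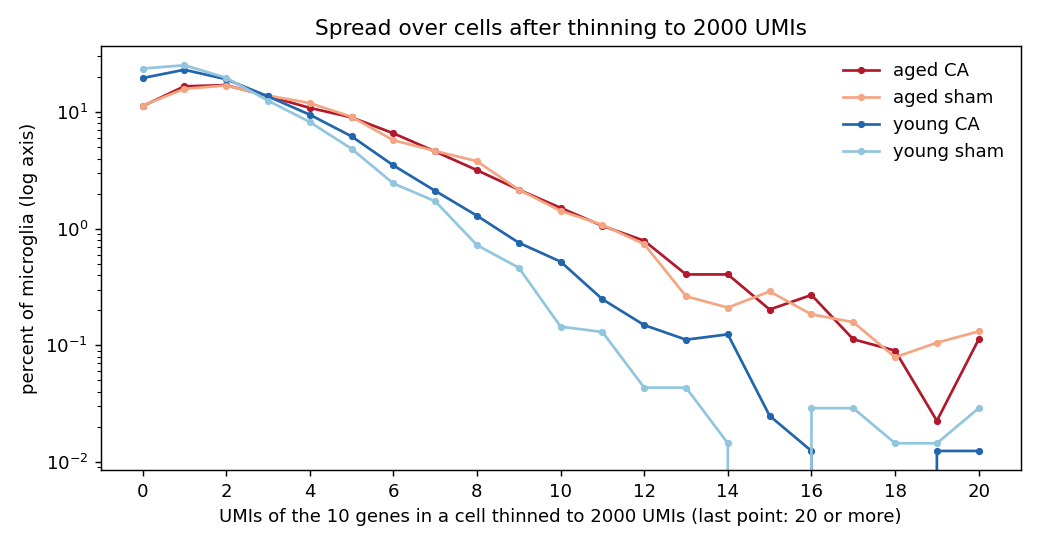
Percent of microglia, on a log axis, by the number of UMIs of the 10 members in a cell thinned to 2000 UMIs, with 1 line per library and cells of 20 or more at the last point. The aged lines lie close together and above the young lines from 4 UMIs on.

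Single members differed in how many cells carried them. After thinning, Junb was seen in 57.5% of microglia in aged CA, 52.6% in aged sham, 47.0% in young CA and 38.1% in young sham (87.4%, 66.2%, 76.9% and 61.7% of all gated cells before thinning). Dusp1 was seen in 21.9% in aged CA, 8.27% in aged sham, 10.5% in young CA and 3.77% in young sham (55.2%, 16.7%, 30.5% and 11.2% before thinning). Fosb was seen in 2.79% in aged CA, 7.37% in aged sham, 2.55% in young CA and 4.77% in young sham (8.53%, 13.7%, 8.61% and 11.7% before thinning). The shares before thinning are not corrected for depth, and no order is read from them. At 2000 UMIs Dusp1 was seen in more cells and Fosb in fewer after CA at both ages. Cells with 5 or more of the 10 members made up 7.09% in aged CA, 6.16% in aged sham, 1.81% in young CA and 0.766% in young sham. Neurons, which carry few of these transcripts, had a UMI of Junb in 45, of Dusp1 in 23 and of Fosb in 2 of 159 cells in aged CA, at a median of 26555 UMIs against 10790 UMIs in microglia.

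Across single microglia the members were weakly tied, in counts that are sparse. Of 45 pairs the one with the highest minimum over the 4 libraries, Junb and Zfp36, had a Pearson r of 0.10 to 0.16, and the r of a member with the sum of the other 9, ranked by its lowest value over the libraries, was highest for Junb (0.15 to 0.25) and lowest for Nr4a1 (-0.01 to 0.02). The genes whose counts went most with the summed members, among 5263 seen in at least 5% of the cells, were Btg2 (r of 0.27 in aged CA, 0.31 in aged sham, 0.21 in young CA and 0.21 in young sham), Jund, H3f3b, Mir142hg, Zfp36l1 and Btg1. Next came Ier5, Rhob, Malat1, Rgs1 and Mcl1, with a lowest r of 0.08 to 0.09. At most 1% of the ranked genes had an r above 0.09 in any library. Jund is the remaining Jun, Zfp36l1 a Zfp36 relative, and Btg2 and Btg1 growth-restraining genes. All cells of a library share its handling and depth, and these values are descriptions.

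Among the other classes the highest sums were in border-associated macrophages, which line the vessels and membranes of brain. Their 29 cells in aged CA summed to 2973 CPM (2768 to 3190), the 28 in young CA to 1773 CPM (1604 to 1956) and the 30 in young sham to 1268 CPM (1127 to 1423), above microglia in all 3, and aged sham had 7 such cells and is not given. The interval in young CA overlapped those of monocytes (1558 to 1639) and neutrophils (1413 to 1707) there. Of the border-associated macrophages 32.1% to 43.3% lay at the limits of the gate, and they carried up to 4.5 of 8 microglial markers at the median. Jun led in each, at 772 CPM in aged CA, 625 CPM in young CA and 582.1 CPM in young sham. Ier2 stood at 217 CPM in young CA and 21.7 CPM in young sham (10.0-fold, 4.01 to 32.2), on 49 and 5 UMIs. In aged over young CA Junb was 3.20-fold higher (2.25 to 4.63) and Dusp1 2.67-fold (1.88 to 3.85).

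Monocytes, which enter from blood, were numerous enough in 58 cells of aged CA and 197 cells of young CA. Their sums were near each other, 1880 CPM in aged CA and 1598 CPM in young CA, but the make-up differed. Atf3 stood at 60.3 CPM in aged CA and 177 CPM in young CA (0.340-fold, 0.272 to 0.420), and Jun at 159 CPM in aged CA and 374 CPM in young CA (0.425-fold, 0.371 to 0.485). Dusp1 stood at 236 CPM in aged CA and 70.6 CPM in young CA (3.35-fold, 2.86 to 3.93), and Fos at 316 CPM in aged CA and 194 CPM in young CA (1.62-fold, 1.45 to 1.82). Jun was thus lower in aged than in young monocytes and higher in aged than in young microglia. These monocytes had a median of 27228 UMIs in aged CA and 20174 UMIs in young CA, and in young CA they carried 3 of 8 microglial markers at the median. The part of that difference in the ratios was not tested.

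In neutrophils, the first responders among blood leukocytes, Dusp1 stood at 520 CPM in 69 cells of aged CA, 166 CPM in 60 cells of aged sham and 561 CPM in 27 cells of young CA. Those levels were above microglia of the same library in all 3, at 140.1, 46.8 and 54.9 CPM in that order. Dusp1 was the highest member in neutrophils of young CA, while Junb stood at 562 CPM in aged CA, and in aged sham Zfp36 (338 CPM), Junb (280.5 CPM) and Ier2 (197 CPM) stood above Dusp1. Border-associated macrophages of aged CA held Dusp1 at 508 CPM (426 to 602), which overlaps neutrophils of that library (475 to 567). The 60 neutrophils of aged sham were shallow, with a median of 2130 UMIs against 13964 in aged CA. They also held the C1q transcripts of microglia at 16.5% of the microglial level, against 2.69% in aged CA. Fosb was scarce in neutrophils, at 2.07 to 8.59 CPM.

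Junb was the highest member in T cells and B cells of every library given. In T cells Junb stood at 243 CPM in 108 cells of aged CA, 271 CPM in 158 cells of aged sham, 259 CPM in 21 cells of young CA and 156 CPM in 33 cells of young sham. Jun by contrast stood at 23.0 CPM in young CA and 19.6 CPM in young sham. That is close to the 15.7 and 19.2 CPM that microglial RNA at the level of C1q would give in these cells. In aged CA Jun stood at 85.5 CPM and in aged sham at 77.3 CPM, where that source would give 20.9 and 56.1 CPM. Aged over young was 3.72-fold in CA (1.40 to 14.0) and 3.95-fold in sham (2.01 to 8.87) for Jun. Fosb also differed by age in T cells, at 76.3 CPM in aged CA, 69.0 CPM in aged sham, 5.75 CPM in young CA and 6.52 CPM in young sham. The counts behind it were 75, 99, 1 and 3 UMIs in that order, for ratios of 13.3-fold in CA (2.31 to 531) and 10.6-fold in sham (3.52 to 52.2). No T cell held more than 9 of those UMIs. In B cells, gated in 38 cells of each aged library, Fosb stood at 72.7 CPM in aged CA and 50.6 CPM in aged sham.

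In neurons the sums were below those of every other class given but the oligodendrocytes of aged sham, at 99.3 CPM in aged CA, 120 CPM in aged sham, 100.1 CPM in young CA and 94.8 CPM in young sham. Nr4a1 nevertheless stood at 34.4 CPM in aged CA, 25.0 CPM in aged sham, 33.4 CPM in young CA and 37.4 CPM in young sham. That is above microglia of the same library in all 4, at 9.55, 4.64, 7.92 and 3.00 CPM. Egr1 stood at 9.18 CPM in aged CA, 23.6 CPM in aged sham, 25.7 CPM in young CA and 24.0 CPM in young sham, and aged CA over aged sham was 0.389-fold (0.260 to 0.572). The neurons compared had a median of 26555 UMIs in 159 cells of aged CA and 3078 UMIs in 255 cells of aged sham, and the part of this gap in the ratio was not tested. Junb stood in neurons at 22.9 CPM in aged CA, 25.2 CPM in aged sham, 11.9 CPM in young CA and 8.85 CPM in young sham, where microglial RNA at the level of C1q would give 9.12, 20.2, 9.93 and 6.17 CPM in that order. Nr4a1 from that source would stand at 0.204 CPM or less. Ptprc stood at 3.71 to 13.4 CPM in neurons.

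**Figure D5:**
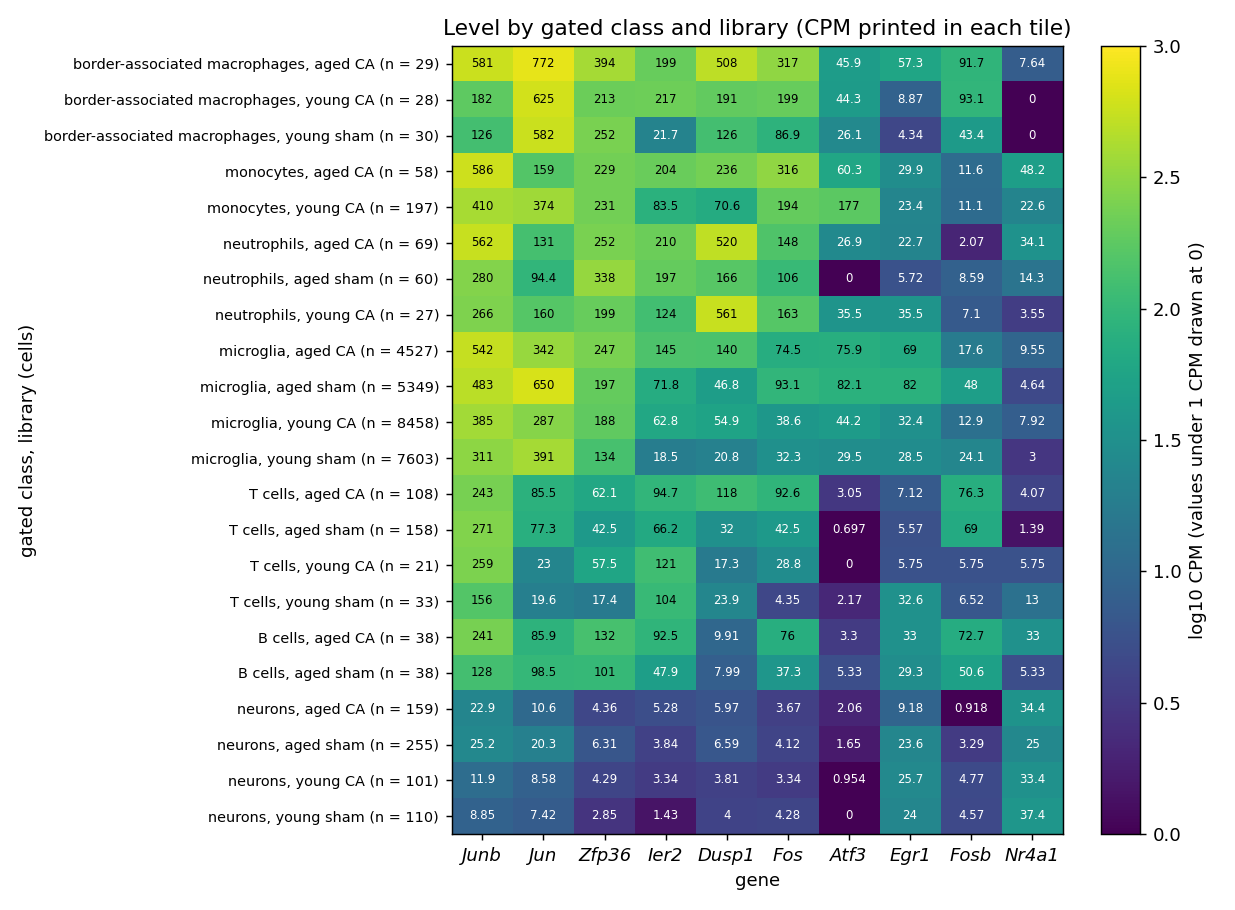
Level of each member (columns) in each gated class and library of at least 20 cells (rows), as CPM printed in each tile and coloured on a log10 scale. Border-associated macrophages are brightest at Jun, neutrophils of both CA libraries at Dusp1 or Junb, and every member in neurons lies at 37.4 CPM or below.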

How the data were processed

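Single-cell 3' RNA libraries (10x v3.1 chemistry) of CD45-sorted brain cells were deposited as matrices of raw UMI counts by gene and barcode. The submitters' processing notes name Cell Ranger 7.1.0 and the mm10 build. The intron and strand settings of the counting are not given in the sources used here. Libraries held 6794 (aged CA), 7700 (aged sham), 10794 (young CA) and 9038 (young sham) barcodes and 70924569, 44277472, 115892682 and 72648041 UMIs in that order.

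Barcodes of at least 500 UMIs and 200 genes and at most 10% mitochondrial UMIs were kept. Scrublet's automatic threshold marked 0 cells in each library, so the highest Scrublet scores were removed at 0.8% per 1000 cells (277, 455, 821 and 610 cells in the same order). Cells were gated into 13 classes by the marker rule in the text. A class is a range of a per-cell score, not a tested type, and classes under 20 cells are not given. Counts were summed per library and class. Levels are CPM with exact Poisson intervals. Ratios of 2 libraries have intervals from the exact binomial split of their counts, and log2 ratios add 0.5 UMI to each sum. Background genes had a mean of at least 10 CPM over the 4 libraries. With 1 library a group no test across samples exists, and a difference of 2-fold was used as a size, not a test.

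The 10 members and the other gene lists were chosen with earlier results of these data known. From each other list, genes of 2-fold or more were named, at most the 4 largest per comparison. The most similar genes are the 12 with the highest minimum Pearson r over the libraries, of which 1 is not reported here. Scripts were tested on simulated data. Gene positions came from the GENCODE annotation of GRCm38. Python 3.11.15, numpy 2.4.6, scipy 1.17.1, pandas 2.3.3, scanpy 1.11.5 and matplotlib 3.10.9 were used, and edgeR 4.0.16 only for TMM factors. Alternatives changed the scaling, pseudocount, filters, depth, mitochondrial limit, doublets, gate and haemoglobin-bearing cells.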

Additional observations from a re-analysis of the deposited data

Results flagged for a closer look

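In microglia 3 members had ratios of CA over sham on opposite sides of 0 at the 2 ages. The log2 ratio of Fos was -0.32 in aged and 0.26 in young mice, that of Egr1 was -0.25 in aged and 0.18 in young mice, and that of Atf3 was -0.11 in aged and 0.58 in young mice. Over the 16 alternatives the aged values ran from -0.36 to -0.19 for Fos, -0.35 to -0.03 for Egr1 and -0.21 to 0.07 for Atf3. Whether the ages differ was not tested, since each group is 1 library. All aged values use the aged sham library, whose microglia had a median of 3653 UMIs and haemoglobin at 91.4 CPM. Limits on depth per cell, and leaving out cells with at least 1% haemoglobin UMIs, changed the sign of none of these ratios. The part of depth and haemoglobin in their size was not tested.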

How the results depend on the processing

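Of 40 member ratios in microglia, 39 kept their sign under all 16 alternatives. The exception was Atf3 in aged CA over aged sham, at -0.11 on the log2 scale, which was 0.02 under TMM scaling and 0.07 as a mean over cells. Thinning to 1000 UMIs was not among the alternatives, and there Egr1 and Atf3 were higher in aged CA than in aged sham. Fosb in aged over young sham lay on either side of 2-fold (0.91 to 1.10 over the alternatives), and Nr4a1 in aged CA over aged sham was under it in 3 settings (lowest 0.90). The median log2 ratio of the members in young CA over young sham, 0.40, was 0.52 under TMM scaling and 0.46 as a mean over cells. In aged CA over aged sham, 0.03 became 0.16 under TMM scaling, 0.18 as a mean over cells, -0.031 with cells of at least 5000 UMIs and 0.082 with a gate without margin. In aged over young CA, 0.63 became 0.72 as a mean over cells. Genes at 2-fold numbered 1224 in aged CA over aged sham, 759 in young CA over young sham, 406 in aged over young CA and 223 in aged over young sham. With a filter of 1 CPM they numbered 3079, 2065, 1371 and 1094 in that order, and without a filter 8759, 7037, 5947 and 5648, since more genes of few UMIs entered. A gate without margin gave 339 in aged over young sham. The other 57 medians and 55 counts stayed within counting error or within 1.5 times. Of single member ratios 72 moved beyond their counting interval and 568 did not. All 80 shares of cells with a UMI moved with the thinning depth, so shares are compared between libraries at 2000 UMIs, and those before thinning are given for reference. No paired analysis was possible because each group is 1 library and the labels give no replicate numbers. Pooled mice, handling and library cannot be told apart from age or arrest.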
